A study of Mus musculus with 4 samples.

Results

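The 7 transcripts S100a8, S100a9, Cstdc4, Cstdc5, Stfa1, Retnlg and Asprv1, which are typical of neutrophils, were followed through every cell class of the mouse fetal lung. They were chosen by symbol, 7 of the 55471 gene identifiers in the count tables, because their level in alveolar type 1 cells was lower in the Dnmt1 mutant libraries than in the wild type libraries. That contrast is therefore described here with no test.

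The study made droplet-based single-cell RNA libraries from mouse lungs at stage E18.5, 2 from wild type embryos and 2 from embryos labelled Dnmt1 CKO. The mutants carried Tbx4-rtTA, Tet-O-Cre and the Dnmt1-D/D allele, in which a reverse tetracycline activator under Tbx4 control turns on Cre in the lung mesenchyme. Dnmt1 encodes the enzyme that copies DNA methylation onto new strands. The tissue was digested with enzymes, and red blood cells were lysed before the droplets were made. Whether the 4 libraries are 4 separate embryos is not given by the labels. The p-values here thus reflect how far these libraries spread, which may be technical.

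Neutrophils are short-lived phagocytes of the innate immune system that arise in fetal liver and bone marrow. S100a8 and S100a9 encode the 2 chains of calprotectin, a calcium-binding protein that also holds zinc and manganese away from microbes and that fills much of the neutrophil cytosol. Stfa1, Cstdc4 and Cstdc5 belong to the stefin A cluster, a group of near-copies in the mouse that encode intracellular inhibitors of cysteine proteases such as the cathepsins. Retnlg encodes resistin-like gamma, a secreted protein of bone marrow and blood neutrophils. Asprv1 encodes a retroviral-like aspartic protease that is also known from the outer layers of skin. Alveolar type 1 cells are the flat epithelial cells across which gas is exchanged, and they are not known as a source of these transcripts.

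In the GENCODE vM21 annotation on GRCm38, S100a8 (ENSMUSG00000056054, chr3:90668978-90670035, plus strand) and S100a9 (ENSMUSG00000056071, chr3:90692632-90695721, minus strand) lie close together on chromosome 3. The stefin genes lie on chromosome 16, with Cstdc4 (ENSMUSG00000079597) at chr16:36184212-36188111 on the plus strand, Stfa1 (ENSMUSG00000071562) at chr16:36276951-36285373 on the plus strand and Cstdc5 (ENSMUSG00000071561) at chr16:36359382-36367748 on the minus strand. Retnlg (ENSMUSG00000022651, chr16:48872621-48874496, plus strand) is on the same chromosome and Asprv1 (ENSMUSG00000033508, chr6:86628164-86629710, plus strand) is on chromosome 6. All 7 are protein coding genes. Cstdc5 overlaps an antisense gene, Gm15845, which held 3, 0, 3 and 1 UMIs in the 4 libraries.

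The libraries read the 3′ ends of transcripts, so how far the stefin genes can be told apart depends on their ends. The last 90 coding bases of the 3 stefin genes, from the GENCODE vM21 transcripts, are given 5′ to 3′ on the coding strand, with capitals at the bases that differ from Stfa1 (18 in Cstdc4 and 2 in Cstdc5).
Stfa1: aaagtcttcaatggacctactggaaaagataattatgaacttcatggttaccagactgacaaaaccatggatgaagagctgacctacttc
Cstdc4: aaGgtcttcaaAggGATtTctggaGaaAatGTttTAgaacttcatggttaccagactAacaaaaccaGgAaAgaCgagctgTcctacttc
Cstdc5: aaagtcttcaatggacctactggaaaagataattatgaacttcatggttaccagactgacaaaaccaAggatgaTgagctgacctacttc
Over the last 100 bases of the transcripts, Stfa1 and Cstdc5 were 98% identical, whereas Cstdc4 was 77.4% identical to each of them. Reads from Stfa1 and Cstdc5 could therefore have been dropped or assigned to the wrong gene during counting, and the split of counts between these 2 genes is uncertain. The calprotectin chains do not have this limit, as the same coding stretch of S100a8 and S100a9 shows.
S100a8: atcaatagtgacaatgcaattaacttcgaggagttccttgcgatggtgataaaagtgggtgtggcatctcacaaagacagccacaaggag
S100a9: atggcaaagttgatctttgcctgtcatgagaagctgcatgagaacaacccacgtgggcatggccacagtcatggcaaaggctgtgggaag
These coding sequences were 53.1% identical over their whole length.

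The libraries, in the order wild type 1, wild type 2, Dnmt1 CKO 1 and Dnmt1 CKO 2, which is kept for every set of 4 values, held 48213065, 56760219, 49582593 and 54334468 UMIs. A UMI (unique molecular identifier) marks 1 captured transcript molecule. After filtering, 5111, 4932, 4323 and 5675 cells were kept and sorted into classes by marker genes that did not include the 7 transcripts. Class names carry "-like" because the cells were named from marker genes alone. Levels are in CPM, UMIs of a gene scaled to 1000000 UMIs of the class after haemoglobin genes are removed. They count molecules at the 3′ end, so they need no scaling for gene length. Dnmt1 stood at 27.6, 26.0, 9.75 and 12.8 CPM in mesenchymal-like cells, lower in both mutant libraries. In alveolar type 1-like cells the groups overlapped, with the mutant libraries at 16.2 and 11.9 and wild type 2 at 13.5. Confidence intervals are 95% and cover counting error only.

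Most of the RNA from the 7 genes was in neutrophil-like cells. There were 51, 36, 28 and 20 such cells, and 15 of the 18 neutrophil markers were detected in them. They had medians of 1533, 2015.5, 1881 and 1658 UMIs. The 7 genes gave 23.2%, 15.4%, 28.4% and 17.3% of their UMIs. These UMIs made up 75.8%, 87.1%, 73.1% and 77.9% of all UMIs of the 7 genes in the library, with barcodes left out by the filters counted too. A neutrophil-like cell carried a median of 291, 158, 469 and 275.5 UMIs of the 7 genes.

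**Figure D1:**
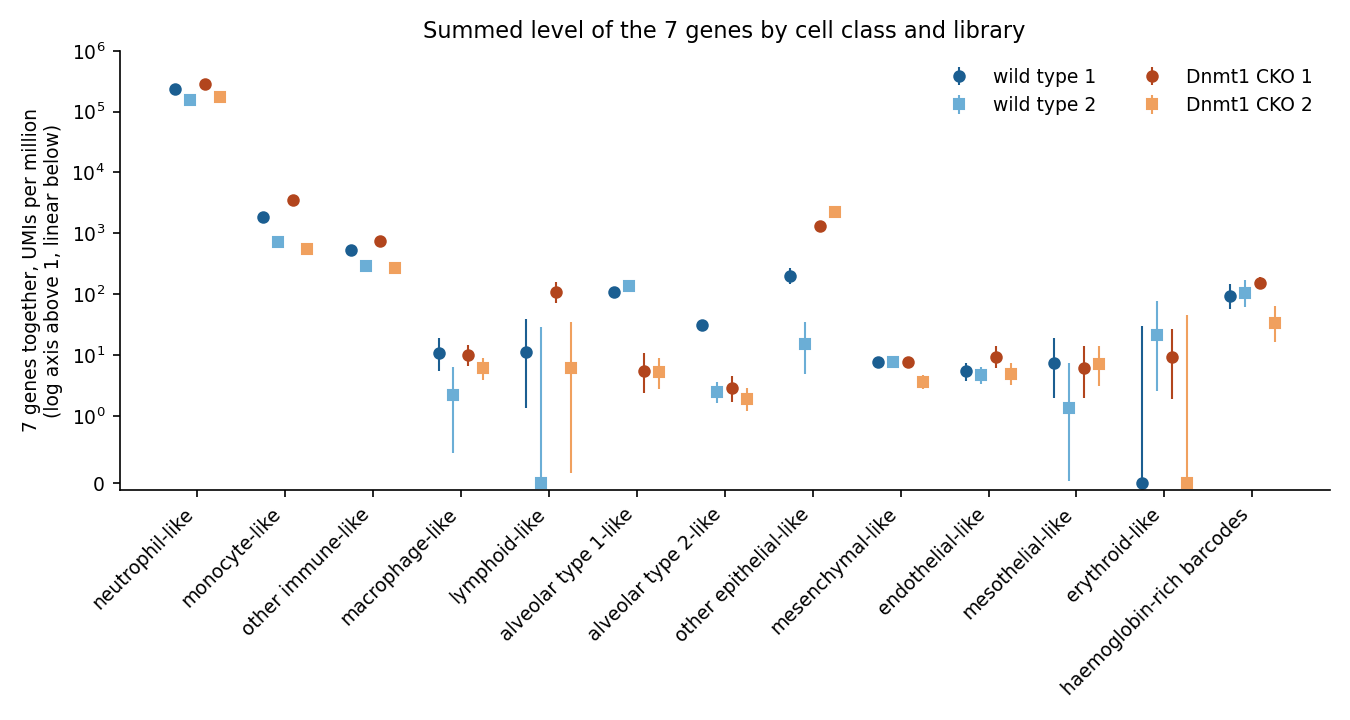
Summed level of the 7 genes in each cell class (CPM, symmetric log axis), with 1 point per library and bars for the exact 95% Poisson interval. Neutrophil-like cells lie between 154358 and 284871, monocyte-like cells between 549 and 3491, and alveolar type 1-like cells at 110 and 134 in the wild type libraries against 5.41 and 5.16 in the Dnmt1 CKO libraries.

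The calprotectin chains were the most abundant of the 7 in neutrophil-like cells of every library. S100a9 stood at 92689, 63272, 93015 and 71767 CPM and S100a8 at 61743, 34069, 75667 and 41149. Wild type 2 was lowest for both genes, Dnmt1 CKO 1 was highest for both, and the groups overlapped. By edgeR, Dnmt1 CKO against wild type gave log2 fold changes of 0.36 (n = 2 libraries per group, SE 0.55) for S100a8 and 0.14 (SE 0.49) for S100a9, both at an adjusted p of 0.988.

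Of the stefins, Cstdc5 stood at 32469, 17990, 39531 and 22447 CPM, Cstdc4 at 19592, 14014, 23610 and 14276, and Stfa1 at 16873, 9670, 39155 and 12160. Dnmt1 CKO 1 was again the highest library for each gene and wild type 2 the lowest, so the stefins followed the same order of libraries at these ends as S100a8. Stfa1 had the largest fitted difference of the 7, 1.05 on the log2 scale (edgeR adjusted p = 0.988, SE 0.64), and it rested on Dnmt1 CKO 1: without that library the value was -0.22.

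Retnlg did not follow that order. It stood at 7622, 12859, 12616 and 12184 CPM in neutrophil-like cells, where wild type 1 was the library that stood apart, and it was found in 72.5%, 72.2%, 82.1% and 70.0% of the cells. Asprv1, the least abundant of the 7 in this class, stood at 2068, 2484, 1277 and 2627 and was lowest in Dnmt1 CKO 1. None of the 7 was called in neutrophil-like cells, where edgeR at an adjusted p under 0.05 called 0% of the 1126 genes tested. At an unadjusted p under 0.05 none of the 7 passed, and DESeq2 called none. The median log2 fold change of the 7 was 0.36, against 0.01 for all genes tested in these cells.

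Other neutrophil genes were read in the same cells. The 5 genes of primary granules that were looked for, Mpo, Elane, Prtn3, Ctsg and Ms4a3, which are made early in the bone marrow, had 0 UMIs in the neutrophil-like cells of all libraries. The 8 genes of secondary and tertiary granules were all tested and 0 were called. Ngp (neutrophilic granule protein) stood at 11715, 664, 5767 and 4378 CPM, and Camp, which encodes the antimicrobial peptide cathelicidin, at 11469, 266, 5587 and 2091. Both were lowest in wild type 2, far below the other libraries. Lcn2, an iron-chelator-binding protein, varied less, at 6760, 2791, 4446 and 4232.

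The 4 other stefin genes found, Stfa2, Stfa2l1, Stfa3 and Cstdc6, were tested and 0 were called. Stfa2 stood at 7552, 6440, 11265 and 7466 CPM, again highest in Dnmt1 CKO 1. None of 11 receptor genes was called, and none of 8 other genes of mature neutrophils. Among the latter, Il1b, the cytokine interleukin-1 beta, stood at 4154, 7871, 4040 and 4280. In each of these lists 0 genes passed an unadjusted p under 0.05 with edgeR and DESeq2 called 0. Median log2 fold changes were 0.41 for the other stefins, 0.17 for the secondary and tertiary granules, 0.17 for the receptors and -0.15 for the other mature genes. Of 7 other S100 genes, 2 could be tested (S100a6 and S100a11) and 0 were called, and of 4 receptors of calprotectin, 2 could be tested (Bsg and Tlr4) and 0 were called, with 0 at an unadjusted p under 0.05 and 0 by DESeq2 in both lists.

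Markers of other cells were also present in the small neutrophil-like class. Of 4 haemoglobin and erythroid genes tested there, 3 passed an unadjusted p under 0.05 with edgeR, and none passed the adjusted threshold. Dnmt1 CKO 2 was the high library. Hbb-bs, for example, stood at 1929, 776, 1498 and 13554 CPM. Sftpc, the surfactant protein gene of alveolar type 2 cells, was 1.02 higher on the log2 scale (edgeR adjusted p = 0.988, SE 0.40). Of 5 alveolar type 2 genes, 2 could be tested, and of 5 macrophage genes none could. Their part in the levels of the 7 genes was not tested.

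S100a8 was also present in other myeloid cells, largely without its partner. Monocyte-like cells (106, 113, 92 and 173 cells) held 656, 494, 1428 and 462 UMIs of S100a8 but 99, 11, 173 and 43 of S100a9. S100a8 therefore made up 86.9%, 97.8%, 89.2% and 91.5% of the UMIs of the pair in these cells, against 40.0%, 35.0%, 44.9% and 36.4% in neutrophil-like cells of the same libraries. The ranges of the 2 classes did not overlap.

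The same held more sharply in the class called other immune-like (266, 226, 405 and 237 cells), which was led by Ear2 and Plet1 in one cluster and by the cycling gene Mki67 with Marco in another. S100a8 had 1009, 706, 2981 and 434 UMIs there and S100a9 had 12, 3, 59 and 3, so S100a8 made up 98.8%, 99.6%, 98.1% and 99.3% of the pair. At least 1 UMI of the 7 genes was found in 82.3%, 74.8%, 84.7% and 64.1% of these cells. With each cell thinned to 3000 UMIs, the shares were 62.8%, 52.9%, 70.7% and 48.6% (16, 3, 6 and 17 shallower cells left out). Mesenchymal-like cells, thinned in the same way, gave 2.45%, 1.74%, 2.23% and 0.964%. The monocyte-like and other immune-like classes together held 15.6%, 25.0%, 43.7% and 32.6% of the S100a8 of each library, but at most 3.50% of its S100a9.

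The stefins split as well. Stfa1 had 199, 139, 611 and 88 UMIs in monocyte-like cells, Cstdc4 had 58, 26, 192 and 20, and Cstdc5 had 7, 0, 15 and 0. Dnmt1 CKO 1 was the highest library for each. In all, 21, 14, 28 and 13 monocyte-like cells held more than 5 UMIs of the 7 genes. Stfa1 exceeded Cstdc5 in all 4 libraries, whereas in neutrophil-like cells Cstdc5 exceeded Stfa1 in all 4. The near-identical ends of these genes, printed above, limit what the split shows. Retnlg and Asprv1 were nearly absent from monocyte-like cells, with 2 and 4 UMIs in wild type 1 and 0 in the other libraries.

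None of the 5 genes tested in monocyte-like cells was called, where edgeR called 0% of 6720 genes, and none of the 3 tested in other immune-like cells, where it called 0% of 9987. At an unadjusted p under 0.05 none passed in either class, and DESeq2 called none. The groups overlapped for the summed level of the 7 genes in both classes, at 1854, 730, 3491 and 549 CPM in monocyte-like cells and 534, 286, 755 and 269 in other immune-like cells. The monocyte-like level rested on the cells with more than 5 UMIs: without them it was 147, 78.7, 106 and 64.9 CPM. The direction in monocyte-like cells depended on 1 library. Without Dnmt1 CKO 2, S100a8 was 1.26 on the log2 scale, and without Dnmt1 CKO 1, Cstdc4 was -1.62 and Stfa1 -1.57.

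**Figure D2:**
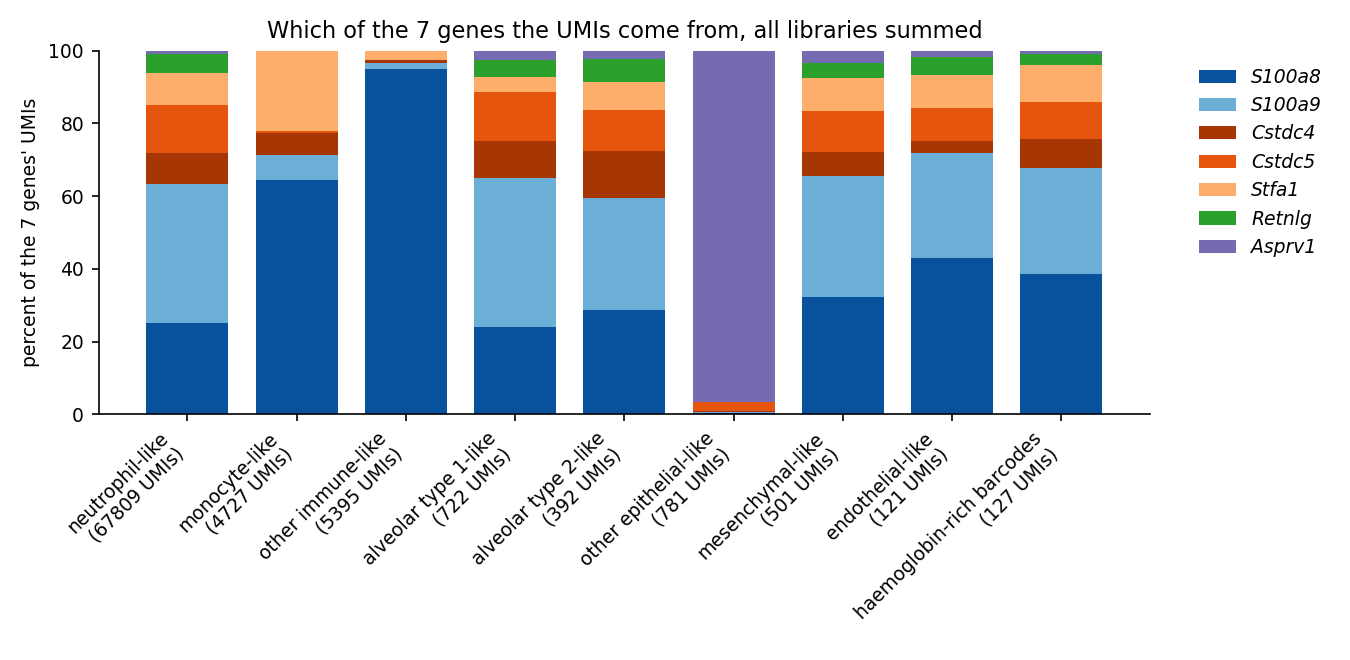
Share of each of the 7 genes in their summed UMIs by cell class (percent, stacked, 4 libraries added together). S100a8 takes nearly the whole bar in other immune-like cells, and S100a9 is the largest part in neutrophil-like cells.

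Cells of the class named macrophage-like, by contrast, held little of this RNA. The 7 genes had 11, 3, 27 and 24 UMIs in them. Among lymphoid-like cells the count was 2, 0, 28 and 1, and 23 of the 28 were S100a8 in 1 barcode. S100a8 was the only one of the 7 that could be tested in macrophage-like cells. It was not called (log2 fold change 0.79, SE 0.77, edgeR adjusted p = 0.761), where edgeR called 0.0843% of genes. Its unadjusted p was 0.244, and DESeq2 did not call it. Other immune-like cells, which were named from broad immune markers, held Mrc1 of macrophages at 78.0, 185, 129 and 168 CPM and C1qa at 0, 8.01, 6.37 and 12.9. Whether they include macrophages was not tested, so the low counts given above hold for the class named macrophage-like alone.

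Among alveolar type 1-like cells the level of the 7 genes was far higher in the wild type libraries, and almost all of it came from 1 barcode in each. The class held 379, 327, 151 and 354 cells with 302, 399, 8 and 13 UMIs of the 7 genes, or 110, 134, 5.41 and 5.16 CPM. The wild type mean (122 ± 17.4, SD, n = 2) was 23.1 times the mutant mean (5.29 ± 0.171, SD, n = 2), a log2 ratio of -4.53 for Dnmt1 CKO over wild type. The rule that chose the genes used this contrast, so it has no test. The ratio moved with the limits on cells, to -1.16 with at least 1000 genes and at most 10% mitochondrial UMIs and to 0.47 with a 200 gene minimum, where the class took in Asprv1-rich barcodes and the libraries stood at 119, 124, 123 and 213 CPM.

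Each of the 7 genes was higher in both wild type libraries, but the genes were chosen by this contrast, so their common direction adds nothing to it. S100a9 had 121, 168, 2 and 4 UMIs, and S100a8 had 73, 94, 3 and 4. Cstdc5 had 39, 55, 2 and 1, Cstdc4 had 30, 41, 1 and 2, and Stfa1 had 22, 8, 0 and 0. Retnlg had 9, 24, 0 and 1, and Asprv1 had 8, 9, 0 and 1. No mutant library reached the lowest wild type count for any gene. With cells over 5 UMIs of the 7 genes left out, the groups overlapped in CPM for every gene but Cstdc4.

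The UMIs were not spread over the class. No UMI of the 7 genes was found in 361, 307, 144 and 343 of the alveolar type 1-like cells, and exactly 1 UMI was found in 16, 19, 6 and 9. A single barcode in wild type 1 held 284 of the 302 UMIs (94.0%), and a single barcode in wild type 2 held 380 of the 399 (95.2%). No alveolar type 1-like cell of the mutant libraries held more than 5.

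**Figure D3:**
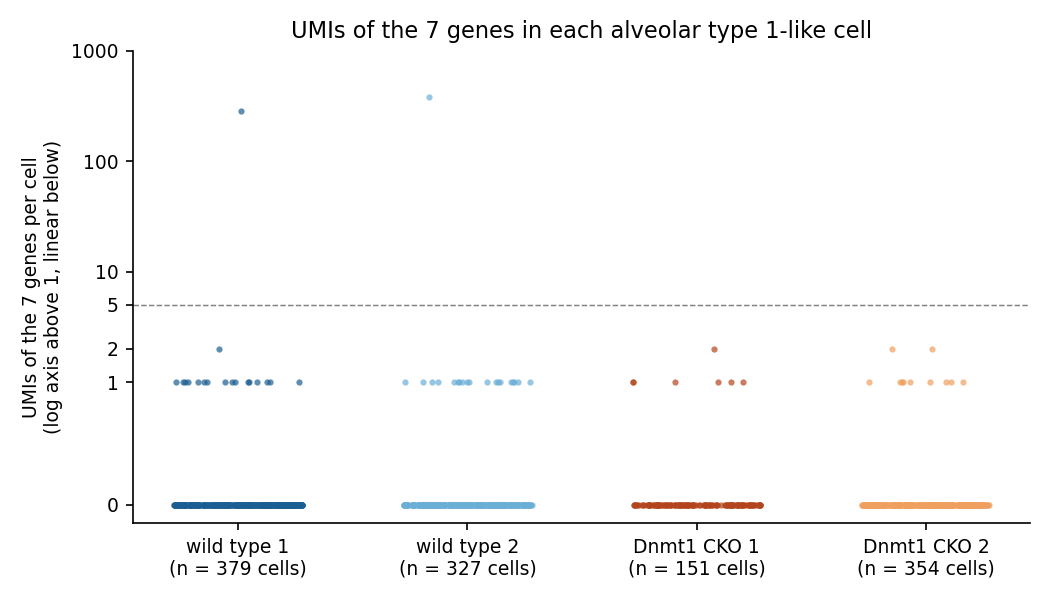
UMIs of the 7 genes in each alveolar type 1-like cell, by library, with a dashed line at 5 UMIs. One barcode in each wild type library, with 284 and 380 UMIs, lies above the line, and every other cell in the 4 libraries lies below it.

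Both barcodes held transcripts of both cell types. They had 18758 and 31853 UMIs, which is 3.38 and 4.23 times the median of alveolar type 1-like cells in their libraries, and 4680 and 6392 genes. Their UMIs of alveolar type 1 markers numbered 223 and 498, among them 90 and 175 of Ager, a membrane receptor that defines these cells in the lung and that also binds S100 proteins. They also held 24 and 43 UMIs of neutrophil markers, with 9 and 10 of the 18 markers detected.

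In the remaining alveolar type 1-like cells the median UMI count of neutrophil markers was 0 in every library and the highest counts were 6, 7, 3 and 9. The 2 barcodes further held 11 and 19 UMIs of Stfa2, 15 and 12 of Stfa2l1, 8 and 11 of Il1b, and 5 and 3 of Csf3r, the receptor for granulocyte colony-stimulating factor. Ngp, Camp and Ltf were at 0 in both. The 7 genes were all present there. S100a8, S100a9, Cstdc4, Cstdc5, Stfa1, Retnlg and Asprv1 had 69, 119, 26, 36, 18, 8 and 8 UMIs in the wild type 1 barcode and 89, 162, 38, 52, 8, 23 and 8 in that of wild type 2.

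Neither barcode was called a doublet. Their Scrublet scores were 0.212 and 0.072, and the lowest scores called in their libraries were 0.228 and 0.242. Whether each holds a neutrophil together with an alveolar cell was not tested.

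With these 2 barcodes left out, the 4 libraries lay close together. The class then held 18, 19, 8 and 13 UMIs of the 7 genes, or 6.58, 6.46, 5.41 and 5.16 CPM. Both mutant libraries were still below both wild type libraries, and the log2 ratio of the group means was -0.30, in place of -4.53. The exact 95% Poisson intervals of the mutant libraries, 2.33 to 10.7 and 2.75 to 8.83, included both wild type levels.

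**Figure D4:**
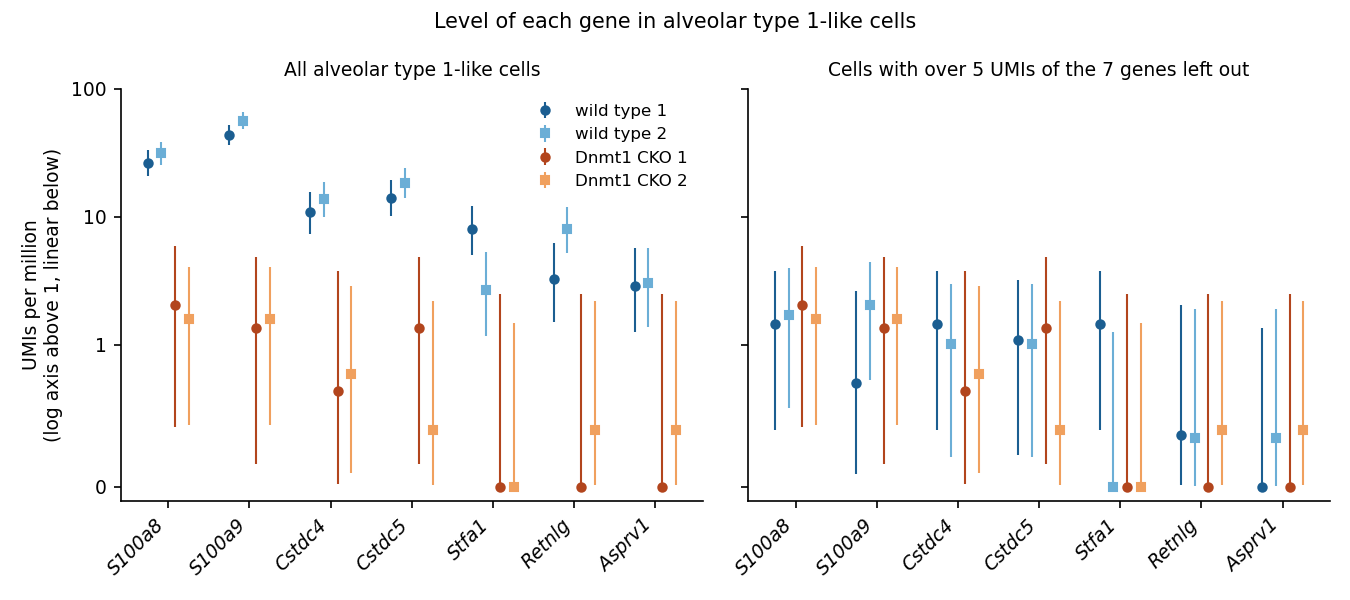
Level of each of the 7 genes in alveolar type 1-like cells (CPM) with all cells and with cells over 5 UMIs of the 7 genes left out, 1 point per library. The wild type points drop to the range of the Dnmt1 CKO points once the 2 barcodes are removed.

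Mesenchymal-like cells were taken as a class for comparison, and whether they lack the 7 transcripts was not tested. The share of alveolar type 1-like cells with any UMI of the 7 genes was close to that of mesenchymal-like cells. It was 4.75%, 6.12%, 4.64% and 3.11% at median depths of 5542, 7536, 7199 and 5371 UMIs, against 4.63%, 3.98%, 5.51% and 2.15% in mesenchymal-like cells at 5936, 7648, 7250 and 5814. Thinned to 3000 UMIs per cell, the alveolar type 1-like shares were 3.77%, 1.98%, 2.84% and 1.69% (34, 24, 10 and 58 shallower cells left out). The thinned mesenchymal-like shares, 2.45%, 1.74%, 2.23% and 0.964%, lay within the intervals of the alveolar type 1-like shares of their own libraries. The alveolar type 1-like share was the higher in every library, but it rested on 13, 6, 4 and 5 cells with a UMI. Intervals this wide cannot show whether the shares of the 2 classes differ.

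The rule asked whether the alveolar type 1 level follows the number of neutrophils. Neutrophil-like cells made up 0.998% (Wilson 95% interval 0.760 to 1.31), 0.730% (0.528 to 1.01), 0.648% (0.449 to 0.935) and 0.352% (0.228 to 0.544) of kept cells. Both mutant libraries were lower than both wild type libraries, but the intervals of wild type 2 and Dnmt1 CKO 1 overlapped for most of their length. By edgeR on numbers of cells the share changed by -0.80 on the log2 scale (adjusted p = 0.468 over 18 classes, SE 0.58). The log2 ratio of CPM in alveolar type 1-like cells was -4.53 with all cells and -0.30 with the 2 barcodes left out. A share of cells and a level in CPM are unlike measures, and whether they are related was not tested with 4 libraries.

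Red cell lysis and tissue digestion can also release RNA into the droplets. Barcodes with under 500 genes and over 50% haemoglobin UMIs, which number 990, 514, 2212 and 1163, were used as a view of it, with haemoglobin genes removed. They held 20, 17, 80 and 10 UMIs of the 7 genes, or 93.9, 106, 154 and 34.1 CPM. Dnmt1 CKO 1 was highest and Dnmt1 CKO 2 lowest, so the groups overlapped, and the order differed from that of the alveolar type 1-like level with all cells. None of the 7 passed the low-count filter there for a test (0.0465% of the genes tested in these barcodes were called by edgeR).

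Per cell rather than in CPM, haemoglobin-rich barcodes held 0.0202, 0.0331, 0.0362 and 0.0086 UMIs of the 7 genes. Alveolar type 1-like cells without the 2 barcodes held 0.0476, 0.0583, 0.0530 and 0.0367. Mesenchymal-like cells without their 1 barcode over 5 UMIs held 0.0471, 0.0422, 0.0586 and 0.0222. In all 3 sets Dnmt1 CKO 2, the library with the fewest neutrophil-like cells, was the lowest, and the other 3 libraries had no common order.

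**Figure D5:**
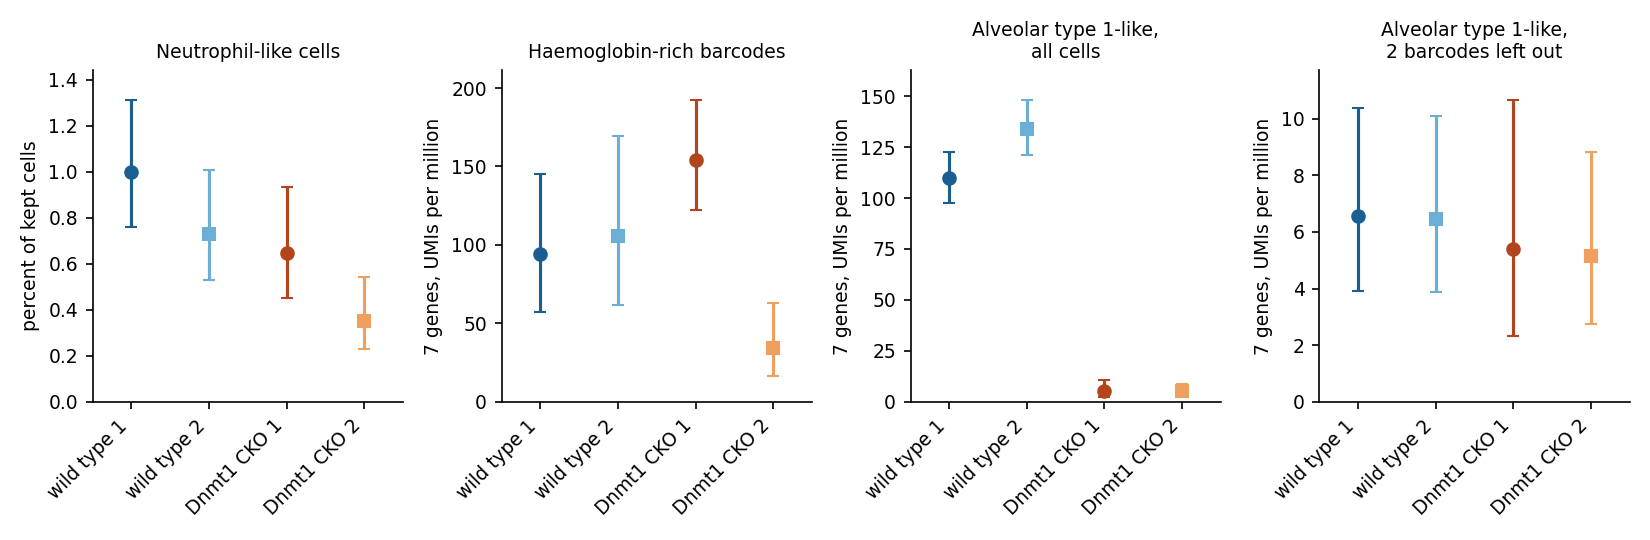
By library, neutrophil-like cells as a percent of kept cells (bars, Wilson 95%), and the level of the 7 genes in CPM (bars, exact Poisson 95%) in haemoglobin-rich barcodes, in all alveolar type 1-like cells, and in alveolar type 1-like cells without the 2 barcodes. The wild type libraries stand far above the mutant ones in the panel of all alveolar type 1-like cells, at 110 and 134 against 5.41 and 5.16, and the 4 libraries lie between 5.16 and 6.58 once the 2 barcodes are left out.

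Transcripts of other cell types were read in the same cells, and they did not all follow the number of their source cells. C1qa, C1qb, C1qc, Mrc1 and Ms4a7 of macrophages together had 0.0317, 0.0520, 0.0927 and 0.144 UMIs per alveolar type 1-like cell, and 0.0364, 0.0558, 0.114 and 0.182 per mesenchymal-like cell. In both classes the mutant libraries were above the wild type libraries, as were the numbers of macrophage-like cells, 133, 146, 270 and 425. The 5 erythroid genes had 16.2, 17.9, 13.5 and 22.4 UMIs per alveolar type 1-like cell and 17.7, 12.0, 44.4 and 16.8 per mesenchymal-like cell. The libraries held 26, 22, 62 and 20 erythroid-like cells and, outside the kept cells, 990, 514, 2212 and 1163 haemoglobin-rich barcodes. Dnmt1 CKO 1, with the most of both, was the highest library in mesenchymal-like cells and the lowest in alveolar type 1-like cells. The 5 alveolar type 2 genes had 2.44, 3.11, 3.01 and 6.13 UMIs per mesenchymal-like cell, beside 417, 381, 252 and 628 alveolar type 2-like cells. For the 7 neutrophil genes, counted per cell without the barcodes over 5 UMIs, the groups overlapped in both classes.

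Alveolar type 2-like cells, the surfactant-making neighbours, repeated the pattern in 1 library. They held 324, 26, 18 and 24 UMIs of the 7 genes, or 31.2, 2.49, 2.85 and 1.90 CPM. In wild type 1, 3 barcodes with 251, 18 and 15 UMIs held most of the total. S100a9 had 100, 10, 7 and 4 UMIs and was the only one of the 7 that could be tested. Its log2 fold change was -2.71 (SE 0.98, edgeR adjusted p = 0.959) and it was not called, where edgeR called 0% of 13528 genes. It passed an unadjusted p under 0.05 (0.0090), and DESeq2 did not call it. With cells over 5 UMIs left out it had too few UMIs for a test. With 1 library left out the value ranged from -3.62 to -0.47, the latter without wild type 1. S100a9 was called with a replicate block (edgeR adjusted p = 0.0069), where edgeR called 83 of 13528 genes.

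The single richest barcode outside the neutrophil-like class was cardiomyocyte-like. It came from wild type 1 and held 1963 of the 1964 UMIs of the 7 genes in that class and library, with 632 of S100a8 and 933 of S100a9. It had 39802 UMIs in all, among them 610 of Myl7 and 295 of Tnnt2, both contractile genes of heart muscle. Its Scrublet score was 0.123, below the lowest score called.

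In mesenchymal-like cells, where Cre is driven, the 7 genes stood at 7.70, 7.77, 7.58 and 3.65 CPM. In CPM this was below the haemoglobin-rich barcodes of each library, which hold few UMIs once haemoglobin genes are removed. Per cell it was above them in each library, at 0.0471, 0.0613, 0.0586 and 0.0222 UMIs against 0.0202, 0.0331, 0.0362 and 0.0086. Dnmt1 CKO 2 was the low library. One barcode of wild type 2 held 49 of its 157 UMIs. Of the 4 genes tested, 0 were called by edgeR, where 13% of 16166 genes were called, and DESeq2 called 0. Cstdc4, with 11, 13, 5 and 4 UMIs (log2 fold change -1.10, SE 0.58, edgeR adjusted p = 0.155), and Cstdc5, with 18, 23, 11 and 5 (-1.18, SE 0.51, edgeR adjusted p = 0.122), passed only an unadjusted p under 0.05. The median of the 4 was -0.92, against 0.00 for all genes.

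Endothelial-like cells held 33, 40, 24 and 24 UMIs of the 7 genes. Neither of the 2 genes tested was called by edgeR, where 0.0553% of genes were called. None passed an unadjusted p under 0.05, and DESeq2 called none. Mesothelial-like cells held 4, 1, 5 and 8 UMIs, ciliated-like cells 5, 12, 1 and 9, secretory-like cells 0, 7, 1 and 5, erythroid-like cells 0, 2, 3 and 0, dendritic-like cells 0, 1, 1 and 0, mast or basophil-like cells 1, 0, 1 and 1, and megakaryocyte-like cells 0, 0, 9 and 0. None of the 7 could be tested in these classes. Of them, mesothelial-like and erythroid-like cells were fitted, with 0.518% and 0.445% of genes called by edgeR.

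Asprv1 was the exception among the 7, with a source outside the immune cells. In the class called other epithelial-like (91, 152, 49 and 120 cells of low UMI count) it had 44, 0, 177 and 533 UMIs, or 198, 0, 1331 and 2184 CPM. Both mutant libraries were above both wild type libraries. The UMIs came from 7 barcodes, 1 in wild type 1, 2 in Dnmt1 CKO 1 and 4 in Dnmt1 CKO 2, all of which held Krt13 (22 to 105 UMIs), Cnfn (26 to 202), Psca (58 to 374) and Krt19 (13 to 187), the first 2 genes of stratified epithelia. Crct1 was at 0 in 2 of the 7 barcodes and Lce3f in 4, the wild type one among them for both. These names were picked out after their values were seen, and the barcodes were given no cell type.

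Asprv1 was not called in that class (log2 fold change 4.13, SE 1.11, edgeR adjusted p = 0.182), where edgeR called 0.713% of genes. It passed an unadjusted p under 0.05 (0.0044), and DESeq2 did not call it. It was called with a replicate block, where edgeR called 123 of 2947 genes, and with no filter on low counts, where it called 126 of 14262. With 1 library left out, the log2 fold change of Asprv1 ranged from 3.19 to 7.72. The share of the library's Asprv1 that lay in neutrophil-like cells was 71.9%, 92.0%, 30.6% and 16.3%, whereas for Retnlg it was 80.3%, 95.9%, 98.9% and 96.9%. Asprv1 thus had the lowest share of the 7 in both mutant libraries. No other of the 7 was abundant in those barcodes, except Cstdc5 with 20 UMIs in 1 barcode of Dnmt1 CKO 2.

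Over all 24 tests of a gene in a class that could be run, in 8 of the 12 classes fitted and leaving out alveolar type 1-like cells, edgeR called 0 and DESeq2 called 0. At an unadjusted p under 0.05, 4 passed, 3 of them lower in the mutant libraries and 1, Asprv1 in other epithelial-like cells, higher. Over all genes, the same limit was passed by 4525 of 16166 in mesenchymal-like cells, the source of 2 of the 4, by 476 of 13528 in alveolar type 2-like cells and by 321 of 2947 in other epithelial-like cells. All of these classes come from the same 4 libraries and are not independent of the contrast that chose the genes.

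The likeness of other genes to S100a8 was measured across classes. Pearson's r was taken on log2(CPM + 1) over 48 sums (12 classes in 4 libraries that share depth within a library), among 16594 genes. The 5 highest outside the 7 were Mmp8 (0.955), a collagenase of neutrophil granules, Sirpb1b (0.950), Trem3 (0.947), Trem1 (0.940), which encodes an activating receptor of myeloid cells, and Gm14548 (0.935). Within the 7, r with S100a8 was 0.912 for Cstdc4, 0.894 for Stfa1, 0.875 for S100a9, 0.761 for Retnlg, 0.740 for Cstdc5 and 0.488 for Asprv1.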

How the data were processed

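The deposited values are raw UMI counts per gene and barcode. Per the submitters' processing notes, the tools of the authors were Cell Ranger 3.1.0, bcl2fastq 2.20 and Seurat, and the build was GRCm38.p6. Barcodes with under 500 genes or over 20% mitochondrial UMIs were left out, as were doublets called by Scrublet (expected rate 6%) in scanpy 1.11.5. The 7 genes were taken out of the 2000 variable genes, of the marker lists and of the ranking of leading genes. Clusters (30 components, 15 neighbours, leidenalg 0.10.2 at resolution 1) were named from markers, with score limits set after the clusters were seen. Between libraries, 36 barcode sequences of kept cells were shared, none of them neutrophil-like. Counts summed per class and library were compared with the quasi-likelihood test of edgeR 4.0.16 (TMM, filterByExpr), p-values adjusted by Benjamini-Hochberg over all genes of a class; DESeq2 1.42.0 was an alternative. The edgeR step was tested on simulated data with a fixed spread, which cannot show how it performs at the spread of these libraries. Named genes were the 7, up to 4 per list by level in neutrophil-like cells, and the 5 most like S100a8. Genes and lists were chosen with earlier results of these data known. Cstdc4 and Cstdc5 appear as Gm5483 and BC100530 in GENCODE vM21.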

Additional observations from a re-analysis of the deposited data

Results flagged for a closer look

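Cstdc5 was lower in both mutant libraries than in both wild type libraries in some classes and higher in another, at low counts. Its mean level, Dnmt1 CKO minus wild type, was -0.669 CPM in mesenchymal-like cells, -0.340 in endothelial-like cells and -12.2 in haemoglobin-rich barcodes. These values rested on 57, 11 and 13 UMIs over the 4 libraries, and the groups did not overlap. The share of all genes without overlap in these classes was not counted, so the separation cannot be read as particular to Cstdc5. In other epithelial-like cells the Cstdc5 difference was 44.7, where the UMIs were 0, 0, 1 and 20 and the 20 came from 1 barcode. In the main comparisons Cstdc5 was called in none of these classes, and of the 4 it was tested in mesenchymal-like cells alone. With no filter on low counts it was called in other epithelial-like cells (log2 fold change 2.72, edgeR adjusted p = 5.59e-05), where edgeR called 126 of 14262 genes. The difference between these classes was not tested.

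Barcodes called doublets, which the main comparisons left out, held 3244, 130, 765 and 145 UMIs of the 7 genes in wild type 1, wild type 2, Dnmt1 CKO 1 and Dnmt1 CKO 2. There were 228, 172, 78 and 82 such barcodes, and 20, 6, 15 and 3 of them held more than 5 of these UMIs.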

How the results depend on the processing

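The count of genes called, 0 of 24 tests, became 11 with no filter on low counts and 2 with a replicate block, and ranged from 1 to 8 with 1 library left out (1 without wild type 1, 1 without wild type 2, 6 without Dnmt1 CKO 1 and 8 without Dnmt1 CKO 2). The 11 include genes that the filter had left out of the 24, such as S100a8 in alveolar type 2-like cells. Calls over all genes rose too, in alveolar type 2-like cells from 0 to 155 of 24514 with no filter and 83 of 13528 with the block, and in mesenchymal-like cells from 2106 to 3678 of 16166 with the block. Asprv1 in other epithelial-like cells was called with no filter and with the block, as were 126 of 14262 and 123 of 2947 genes of that class. S100a9 in alveolar type 2-like cells was called with no filter and with the block (edgeR adjusted p = 0.0069). The labels number the replicates but give no pairing.

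The alveolar type 1-like log2 ratio of -4.53 was -0.30 with cells over 5 UMIs left out, -1.16 with at least 1000 genes and at most 10% mitochondrial UMIs, -4.22 with doublets kept and 0.47 with a 200 gene minimum, an alternative chosen after seeing the data. In the settings of 1000 and 200 genes the class also took in the Asprv1-rich barcodes. With 1 library left out it ranged from -4.67 to -4.37. The neutrophil-like share was -0.82 with the replicate block and ranged from -1.29 to -0.41 with 1 library left out, called in no setting.

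For single genes, log2 fold changes turned direction as follows, and the cause was not tested. With cells over 5 UMIs left out, S100a8 was -0.16 in endothelial-like, 0.10 in mesenchymal-like and -0.23 in monocyte-like cells, and Stfa1 was -0.36 in monocyte-like cells. With doublets kept, S100a9 was -0.038 in endothelial-like and -0.11 in other immune-like cells. S100a8 in mesenchymal-like cells was 0.087 under the limits of 1000 genes and 10%, and 0.13 at resolution 2. Cstdc4 in other immune-like cells was -0.027 with the replicate block and -0.020 at resolution 2. S100a9 in neutrophil-like cells was -0.081 with no filter.

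With 1 library left out, the ranges that included both directions were as follows. In neutrophil-like cells they were -0.32 to 1.00 for S100a8, -0.21 to 0.58 for S100a9, -0.32 to 0.67 for Cstdc4, -0.27 to 1.00 for Cstdc5, -0.22 to 1.73 for Stfa1 and -0.62 to 0.15 for Asprv1. In monocyte-like cells they were -0.97 to 1.26 for S100a8, -1.08 to 3.39 for S100a9, -1.62 to 2.31 for Cstdc4, -0.23 to 2.51 for Cstdc5 and -1.57 to 1.80 for Stfa1. In other immune-like cells they were -0.48 to 0.84 for S100a8, -0.63 to 2.26 for S100a9 and -0.31 to 1.35 for Cstdc4. S100a9 in endothelial-like cells ranged from -0.090 to 0.26 and S100a8 in mesenchymal-like cells from -1.005 to 0.40. A fit without 1 library leaves 1 library in its group, which is assumed to vary like the other group. The small number of neutrophil-like cells, 20 to 51 a library, and of UMIs outside myeloid cells limits all of these values.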
